A study of Homo sapiens with 4 samples.

Results

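The genes described here are 10 members of the cadherin adhesion system and its neighbourhood: N-cadherin (CDH2), the cadherins CDH1, CDH3 and CDH11, the catenins CTNNA1, CTNNB1, CTNND1 and JUP, the intermediate filament gene VIM and the transcription factor gene ZEB1. They were chosen by gene symbol around CDH2, which itself was chosen by its measured difference between the cell-lines compared here, and every probe annotated with one of these symbols was taken. They have 14 of the 24526 probes of an Illumina HumanRef-8 v3.0 bead array and make up 10 of its 16922 gene symbols. The comparison was between a pair of stable cell-lines made from A549, a human lung adenocarcinoma line. A549/146b cells carry the pLemiR lentiviral vector with the human pre-miR-146b sequence behind a red fluorescent protein gene that a constitutively active cytomegalovirus promoter drives, and A549/vec cells carry the same vector with no insert. Both are populations selected with puromycin rather than clones, both were kept in puromycin, and both had been in culture for a similar time. Total RNA was taken from trypsinized cultures of both cell-lines grown side by side on 2 occasions, which gives 4 arrays, 2 for each cell-line, and the replicate number names the occasion. Each array was made from a culture of its own, and the microRNA itself was not analysed here.

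Classical cadherins are calcium-dependent adhesion molecules that bind their like on neighbouring cells. Inside the cell their tails hold beta-catenin or plakoglobin, which bind alpha-catenin and through it actin, while p120-catenin keeps the cadherin at the surface. Epithelial cells typically use E-cadherin, and in many carcinomas that take on mesenchymal traits E-cadherin is lowered, N-cadherin and vimentin are raised, and repressors of the E-cadherin gene such as ZEB1 are active.

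The hairpin in A549/146b cells yields a mature microRNA from each arm. Their sequences, and that of the related miR-146a-5p, are shown because they are the only designed difference between the cell-lines. They are RefSeq sequences of GRCh38.p14, 5′ to 3′, with the seed (bases 2 to 8) in capitals.
hsa-miR-146b-5p: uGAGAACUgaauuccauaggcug
hsa-miR-146b-3p: gCCCUGUGgacucaguucuggu
hsa-miR-146a-5p: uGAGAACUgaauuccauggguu
The 5p arm lies at chr10:102436520-102436542 and the 3p arm at chr10:102436557-102436578, both on the plus strand. The seed of miR-146b-5p is shared by 3 of the 2370 mature human microRNAs of that table, among them miR-146a-5p, and the seed of miR-146b-3p is found in no other.

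The values are normalized signals, that is, the brightness of a probe once the authors had corrected the background, stabilized the variance and aligned the arrays by robust splines, on a linear scale. A detection p-value compares each signal with the negative control beads of its array, and a probe was called detected on an array where this p was under 0.01. Of the 24526 probes 39.18% to 42.13% were detected per array, and the lowest detected signal was 104.3 to 118. A limma fit was run on the 10559 probes that 1 or more arrays detected, the occasion being its block, and calls were made at a Benjamini-Hochberg adjusted p of 0.05. Over these probes the log2 difference between the cell-lines, A549/146b minus A549/vec, had an SD of 0.289 on occasion 1 and 0.163 on occasion 2. A549/vec replicate 1 was the lowest of the 4 arrays for 35% and the highest for 33.9% of the tested probes. Of the defining markers of A549 as an epithelial line, KRT8, KRT18, KRT19 and KRT7 were detected and EPCAM was not, and of the alveolar type II markers only ABCA3 of 10 was. No endothelial marker of 8 was detected. PDGFRA and ACTA2 of 11 fibroblast, CD14 and CD68 of 10 leukocyte and TUBB3 of 8 neural markers were, as were INA, LIN28B and SOX2 of 8 markers of HEK293, the embryonic kidney line from which packaging lines are made.

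Of the 14 probes 7 were detected on all 4 arrays, JUP ILMN_2366864 was detected on 1, and 6 were detected on none. The 8 tested probes stand for 6 genes, CDH2, CDH1, CTNNA1, CTNNB1, JUP and VIM. CDH3, CDH11, CTNND1 and ZEB1 had no tested probe.

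**Figure D1:**
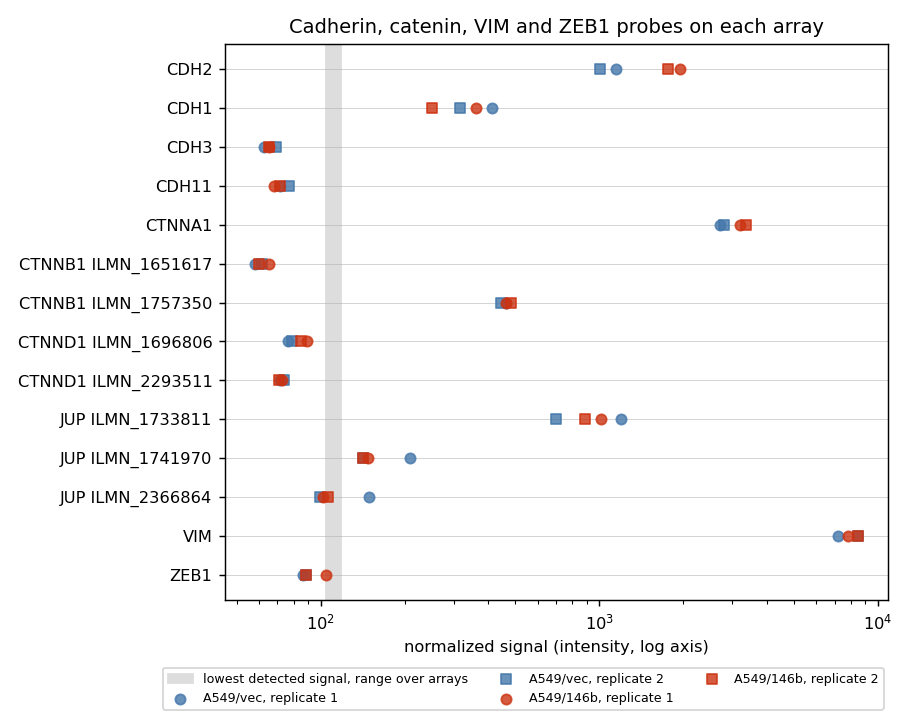
Normalized signal (log axis) of each of the 14 probes on each of the 4 arrays, with circles for replicate 1 and squares for replicate 2, blue for A549/vec and red for A549/146b. The grey band spans the lowest detected signal of the arrays, 104.3 to 118. The 2 red points of CDH2 lie to the right of both blue points, as do those of CTNNA1, and the CDH1 points interleave.

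N-cadherin, the cadherin of neural and mesenchymal cells, had the widest difference of the 10 genes. Its probe, ILMN_1779228, gave signals in A549/vec of 1151 (replicate 1) and 1007 (replicate 2), and in A549/146b of 1952 (replicate 1) and 1765 (replicate 2). Both A549/146b arrays were brighter than both A549/vec arrays, and the lower A549/146b signal stood clear of the higher A549/vec signal. A549/vec averaged 1079 ± 102 and A549/146b averaged 1859 ± 132 (SD, n = 2 each). The signal was 1.70-fold higher in A549/146b on occasion 1 and 1.75-fold on occasion 2, which are log2 differences of 0.76 and 0.81. In both cell-lines the second culture was a little dimmer than the first, with culture differences on the log2 scale of -0.19 (A549/vec) and -0.15 (A549/146b), so the cell-lines differed by more than the cultures of either. In RNA from whole cultures, more RNA per cell and a larger share of expressing cells cannot be told apart. Because CDH2 was chosen on this very difference, the values are a description and carry no test. In the order of mean log2 difference over the 10559 tested probes CDH2 was the third from the top, at 0.79. VAMP8 at 1.23 and ANXA10 at 0.83 were above it, and UGT1A7 at 0.77 and BCHE at 0.73 followed. The fitted standard error of CDH2 was 0.14, which rests almost wholly on limma's pooling over probes and not on the spread of CDH2 itself. Its neighbours ANXA10, UGT1A7 and BCHE lay within that error of CDH2. The A549/vec signals of UGT1A7 and BCHE were under the lowest detected signal of their arrays, so their differences are imprecise.

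E-cadherin (CDH1), the cadherin of epithelial junctions, was detected on all 4 arrays in both cell-lines. ILMN_1770940 gave 412 and 317 in A549/vec and 360.5 and 250.1 in A549/146b, replicates 1 and 2 in turn. The groups overlapped: A549/146b replicate 1 was brighter than A549/vec replicate 2. A549/vec averaged 365 ± 67.0 and A549/146b averaged 305 ± 78.0 (SD, n = 2 each). Within each occasion A549/146b was the dimmer, with log2 differences of -0.19 and -0.34, a mean of -0.27 ± 0.11 (SD, n = 2 occasions). The second culture was also dimmer than the first in both cell-lines, with log2 differences between cultures of -0.38 (A549/vec) and -0.53 (A549/146b). The direction was thus alike on both occasions, while a comparison that ignores the occasion rests on overlapping groups. As a difference of group means over 3 arrays, which cannot be paired, it ran from -0.53 without A549/146b replicate 1 to -0.01 without A549/146b replicate 2.

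P-cadherin (CDH3), the gene next to CDH1 on its chromosome, was detected on no array, and gave 62.9 and 69.1 in A549/vec and 65.2 and 65.3 in A549/146b. Cadherin-11 (CDH11), a cadherin of mesenchymal cells and osteoblasts, gave 71.2 and 76.8 in A549/vec and 68.0 and 71.3 in A549/146b, again detected on none. Probes whose detection p exceeded 0.5 had a median signal of 62.6 to 62.7 on these arrays, and both cadherin probes lay near that level. For neither gene can a difference be read at these signals.

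The rule that gathered these genes sets CDH2 against CDH1 in each array. Probes differ in how brightly they report a transcript, so the gap between the 2 signals does not say which transcript was the more abundant, but its change between arrays can be read. On the log2 scale, CDH2 minus CDH1 was 1.48 and 1.67 in A549/vec and 2.44 and 2.82 in A549/146b, replicates 1 and 2. The gap was wider on both A549/146b arrays than on either A549/vec array. It widened by 0.96 on occasion 1 and by 1.15 on occasion 2, a mean of 1.06 ± 0.14 (SD, n = 2 occasions), and from culture 1 to culture 2 it widened by 0.18 in A549/vec and by 0.38 in A549/146b. Of the mean widening, 0.79 came from CDH2, which was higher in A549/146b on both occasions, and the rest from CDH1, with its mean difference of -0.27. This gap contains the value on which CDH2 was chosen and is given without a test.

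**Figure D2:**
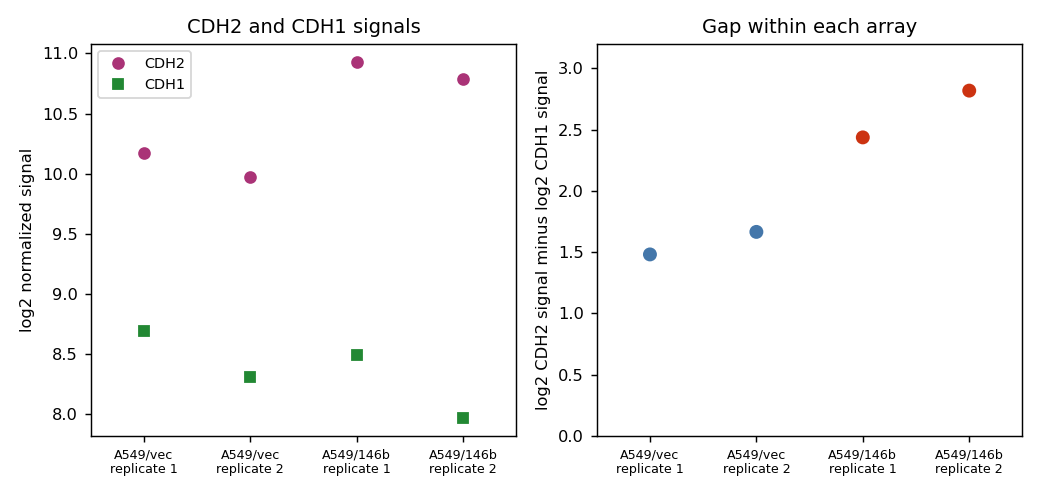
Left, log2 normalized signal of CDH2 (circles) and CDH1 (squares) on each of the 4 arrays. Right, the log2 gap between them within each array, which runs from 1.48 and 1.67 in A549/vec (blue) to 2.44 and 2.82 in A549/146b (red). Heights of different probes are not comparable as amounts of RNA.

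Set against the other detected genes on the same arrays, the CDH2 signal likewise moved apart from each of them on both occasions. On the log2 scale CDH2 gained on CTNNA1 by 0.53 and 0.55, on CTNNB1 by 0.77 and 0.69 and on VIM by 0.64 and 0.81, on occasions 1 and 2. On the JUP probe ILMN_1733811 it gained 1.00 and 0.47, and on ILMN_1741970 1.27 and 0.80. Each of these gains contains the value on which CDH2 was chosen, so they are no separate result and carry no test. The gain was of like size on both occasions for CTNNA1, while for JUP the occasions were far apart.

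Alpha-catenin (CTNNA1), which ties the cadherin and beta-catenin complex to actin, was the other tested gene whose groups did not overlap. ILMN_2230902 gave 2709 and 2798 in A549/vec and 3189 and 3354 in A549/146b. Each A549/146b array was above both A549/vec arrays, and cultures of 1 cell-line lay close together. The means were 2754 ± 63.1 and 3271 ± 117 (SD, n = 2 each), and the log2 differences were 0.24 and 0.26. The difference stayed between 0.21 and 0.28 when any 1 array was left out. On occasion 1 it was within the SD of all tested probes on that occasion, 0.289, and on occasion 2 it was beyond the SD of 0.163.

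Beta-catenin (CTNNB1), which binds the cadherin tail and is also the transcriptional partner of TCF factors in Wnt signalling, showed values close to one another. Its probe ILMN_1757350 gave 462 and 445 in A549/vec and 461 and 483 in A549/146b, with log2 differences of -0.00 and 0.12. A549/vec replicate 1 lay between the A549/146b arrays, so the groups overlapped. The other CTNNB1 probe, ILMN_1651617, was detected on no array, with signals of 58.2 to 65.2.

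Plakoglobin (JUP), the relative of beta-catenin found both in adherens junctions and in desmosomes, has 3 probes, and the cell-lines did not keep 1 order on them. ILMN_1733811, the brightest, gave 1194 and 700.1 in A549/vec and 1016 and 889 in A549/146b. The A549/vec arrays were the highest and the lowest of the 4, and the log2 differences of the occasions had opposite signs, -0.23 and 0.34. ILMN_1741970 gave 210.0 and 141 in A549/vec and 148 and 142 in A549/146b, with log2 differences of -0.51 and 0.01. ILMN_2366864 gave 149 and 99.6 in A549/vec and 102 and 106 in A549/146b. This probe was detected on A549/vec replicate 1 alone, and no fold is read for it. On all 3 probes A549/vec replicate 1 was the brightest array. On ILMN_1733811 and ILMN_1741970 A549/vec replicate 2 was below it by log2 differences of -0.77 and -0.57. As plain differences of group means over 3 arrays, these probes gave -0.33 and -0.53 without A549/vec replicate 2. Without A549/vec replicate 1 they gave 0.44 and 0.04. The keratins stood high on the same array: the summed signal of the 5 epithelial markers was 17420 there, 11710 on the other A549/vec array, 12380 on A549/146b replicate 1 and 11750 on A549/146b replicate 2. The part of this array in the JUP values was not tested beyond leaving it out.

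p120-catenin (CTNND1), which holds cadherins at the membrane, was detected at 0.01 on no array by either of its probes. ILMN_1696806 gave 76.3 and 79.2 in A549/vec and 89.7 and 85.0 in A549/146b, with detection p-values of 0.026 to 0.045, so that it would be detected on all 4 arrays at a limit of 0.05. Both A549/146b signals were the higher, yet all 4 lay under the lowest detected signal of any array. ILMN_2293511 gave 71.2 to 74.2. At these signals no difference between the cell-lines can be read for CTNND1.

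Vimentin (VIM), the intermediate filament protein of mesenchymal cells and of many cultured carcinoma lines, was bright in both cell-lines. ILMN_2058251 gave 7156 and 8461 in A549/vec and 7813 and 8434 in A549/146b. Both A549/146b arrays lay between the A549/vec arrays, and the log2 differences were 0.13 and -0.00. ZEB1, a zinc-finger repressor of the E-cadherin gene, was detected at 0.01 on no array. ILMN_1762231 gave 86.2 and 88.6 in A549/vec and 105 and 88.6 in A549/146b, with detection p-values of 0.013 to 0.029. The 105 of A549/146b replicate 1 was the highest, and the other A549/146b array was level with A549/vec replicate 2.

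**Figure D3:**
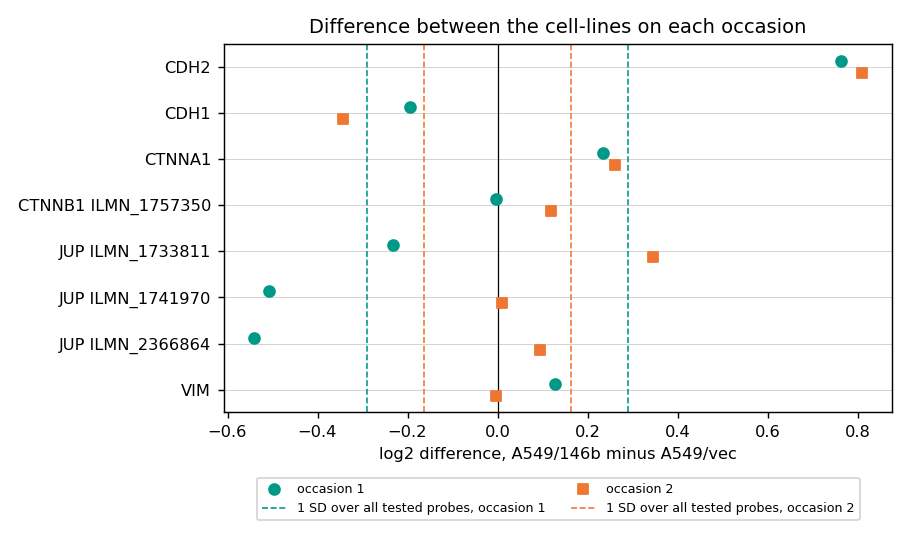
Log2 difference between the cell-lines, A549/146b minus A549/vec, for the 8 tested probes on occasion 1 (circles) and occasion 2 (squares). Dashed lines give 1 SD of the same difference over all tested probes, 0.289 on occasion 1 and 0.163 on occasion 2. CDH2 lies beyond both pairs of lines on both occasions, and the JUP points of the occasions lie far apart.

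Over the 8 tested probes the median of the mean log2 difference was 0.06, and without CDH2 it was 0.06 over 7, beside -0.00 over all tested probes. These medians include JUP ILMN_2366864, which was detected on 1 array. In 2 of the 8, CDH2 and CTNNA1, both A549/146b arrays were above both A549/vec arrays, and in 0 of the 8 both were below. Over all tested probes 22% were above and 22% below in this sense. The limma fit called 1 of the 8, CDH2, beside 98 of the 10559 tested probes, 0.928%. Of these 98, 46 (0.436%) were higher and 52 (0.492%) were lower in A549/146b. As CDH2 was chosen on this contrast, nothing is read from its call. With 3 arrays and the block no residual degree of freedom is left, so fits without 1 array had no block and changed both choices at once. The count over all arrays without the block was 12. Among the fits on 3 arrays, leaving out A549/vec replicate 1 gave 49 and leaving out its replicate 2 gave 868, while leaving out A549/146b replicate 1 gave 12 and leaving out its replicate 2 gave 21. CDH2 was called without the block on all 4 arrays and in each fit on 3 arrays other than the one without A549/146b replicate 1, and its log2 difference on 3 arrays was 0.69 to 0.88.

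The genes whose 4 values followed CDH2 most closely were found by centring the log2 signals of each probe on their own mean and taking the root mean square difference from CDH2. With 4 arrays this ranks probes by the size and evenness of their difference between the cell-lines, and it is a description. The closest was BCHE, butyrylcholinesterase, at 0.062, which gave 81.7 and 79.7 in A549/vec and 142 and 127 in A549/146b. CPS1, the first enzyme of the urea cycle, followed at 0.075, with 338 and 280 in A549/vec and 539 and 449 in A549/146b. UGT1A7, a glucuronosyltransferase, was at 0.085, ANXA10, an annexin, at 0.092 and FILIP1, a filamin-binding protein, at 0.13. The A549/vec signals of BCHE, UGT1A7 and FILIP1 lay under the lowest detected signal of their arrays, so these probes were tested through A549/146b alone and their places in this order rest in part on signals near background. None of these 5 is a junction protein. Among the genes around CDH2, CTNNA1 was the closest at 0.292, rank 617, and CDH1 the farthest at 0.548, while the median over all tested probes was 0.413.

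Around the 10 genes, 8 lists of other adhesion, transition and Wnt genes hold 334 genes, of which 156 were tested. The limma fit called 2 as higher in A549/146b and 0 as lower. Both belong to the other mesenchymal markers, where 23 of 44 genes were tested and 7 had an unadjusted p under 0.05. Of the 199 tested probes of these lists 15 were detected in 1 cell-line only, some of them, such as CELSR2 and FZD8, on 1 array. The same count was not made over all tested probes, so nothing is read from it. The calls stand beside the 0.928% of all tested probes called and the 0.436% called as higher. An unadjusted p under 0.05 was found for 1293 of the 10559 tested probes, 12.2%, and the counts at that limit are given with each list. At both limits a list gene was counted where any of its tested probes passed, while the shares over all tested probes are of single probes. A gene with several probes thus had more ways to be counted. The list medians and the counts above and below 0 took each gene by its brightest tested probe alone. So did the counts of genes where A549/vec replicate 1 was the highest or lowest array. Without the block 0 list genes were called on all 4 arrays, and on 3 arrays 2 were called without A549/vec replicate 1, 29 without A549/vec replicate 2 and 1 without either A549/146b array.

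AXL, a receptor tyrosine kinase found in mesenchymal-like carcinoma cells, rose on its probe ILMN_2364521 from 1306 and 1114 in A549/vec to 2064 and 1461 in A549/146b. Both A549/146b arrays were above both A549/vec arrays, though the A549/146b cultures differed more from each other than the A549/vec cultures did. The log2 fold change was 0.53 (limma, adjusted p = 0.0354). The brighter AXL probe, ILMN_1701877, had a log2 fold change of 0.42 and did not pass (limma, adjusted p = 0.142). SPARC, a matrix-binding glycoprotein, gave 80.0 and 76.3 in A549/vec, not detected there, and 114 and 109 in A549/146b, where 1 of the 2 arrays detected it. It was called (limma, adjusted p = 0.0422), but it entered the fit through that 1 array of the higher group, and the signal of the other A549/146b array lay under the lowest detected there, so no size is read for it. ITGAV, the integrin alpha-V chain, had a log2 fold change of 0.50 that did not pass (limma, adjusted p = 0.0532), with 572 on A549/vec replicate 1 against 907 to 1058 on the others. The AXL call was lost with neqc, with median scaling, without the block and under each of the 3 other detection filters, and the SPARC call with median scaling, without the block, with a detection limit of 0.05 and with no detection filter. On 3 arrays with no block AXL was not called without A549/vec replicate 2 or without A549/146b replicate 1, and SPARC was called only without A549/vec replicate 2. Over the 23 tested mesenchymal genes the median log2 difference was 0.16, with 19 above 0 and 4 below. Over all tested probes the median was -0.00. The share of these above 0 was not counted, so nothing is read from such counts in any list. A549/vec replicate 1 was the lowest array for 9 of the 23, against 35% of all tested probes. Classic members of the list, fibronectin (FN1) and the collagen I genes COL1A1 and COL1A2, were detected on no array. Other members, among them S100A4, CD44, TGFBI, CAV1 and the collagen V genes COL5A1 and COL5A2, were detected on all 4 arrays.

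The other epithelial markers had a median of -0.08 over 16 tested genes of 37, with 11 below 0 and 5 above, and no call by limma in either direction (3 at an unadjusted p under 0.05). Their median was -0.20 on occasion 1 and 0.03 on occasion 2, and A549/vec replicate 1 was the highest array for 11 of the 16, against 33.9% of all tested probes. KRT19, a keratin of simple epithelia, gave 3645 and 2369 in A549/vec and 2530 and 1708 in A549/146b, a log2 fold change of -0.50 that did not pass (limma, adjusted p = 0.0515). Its groups overlapped, though the difference was alike on both occasions. SPINT2, a protease inhibitor, was at -0.29 (limma, adjusted p = 0.380). LLGL2, a polarity protein, had both of its A549/vec signals detected and no A549/146b signal, at least 1.07-fold higher in A549/vec, and did not pass (limma, adjusted p = 0.332). EPCAM and occludin (OCLN) were detected on no array.

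Of 61 other cadherins, 56 were on the array and 11 were tested, CDH17, CELSR1, CELSR2, CELSR3, CLSTN1, DCHS1, FAT1, DSG2, PCDH9, PCDHB2 and PCDHB5. CDH17, liver-intestine cadherin, is the only one of them from the CDH series. None was called by limma (4 at an unadjusted p under 0.05), and the median was 0.04 with 10 above 0 and 1 below. PCDH9, a protocadherin, gave 126 and 139.3 in A549/vec and 177 and 183 in A549/146b, with no overlap and a log2 fold change of 0.44 (limma, adjusted p = 0.113). FAT1, a giant atypical cadherin, had 0.41 (limma, adjusted p = 0.163), but the occasions parted, with log2 differences of 0.93 and -0.11. CELSR3, a planar polarity cadherin, had -0.36 (limma, adjusted p = 0.252) with both A549/146b arrays below both A549/vec arrays. VE-cadherin (CDH5) and K-cadherin (CDH6) were detected on no array.

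Catenin relatives and plaque proteins, 19 tested of 36, had 15 above 0 and 4 below, a median of 0.09 and no call by limma (4 at an unadjusted p under 0.05). Vinculin (VCL), which binds alpha-catenin under tension, had a log2 fold change of 0.36 on its brighter probe (limma, adjusted p = 0.238) and 0.02 on the other. IQGAP1, a scaffold that binds beta-catenin, had 0.32 (limma, adjusted p = 0.333). Both genes differed mainly on occasion 1. The brighter VCL probe had log2 differences of 0.64 on occasion 1 and 0.09 on occasion 2, and IQGAP1 had 0.58 and 0.05. The desmosomal plakophilin PKP3 had both of its A549/vec signals detected and no A549/146b signal, at least 1.13-fold higher in A549/vec, and did not pass (limma, adjusted p = 0.348). Desmoplakin (DSP), the link from plakoglobin to keratins, and ARVCF, a p120 relative, were detected on no array.

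Genes for cadherin processing and turnover were the best covered, with 28 of 37 tested, a median of -0.03 and no call by limma (5 at an unadjusted p under 0.05). SRC, a kinase that phosphorylates junction proteins, gave 1673 and 1290 in A549/vec and 1167 and 1115 in A549/146b, a log2 fold change of -0.37 (limma, adjusted p = 0.233). The phosphatases PTPN11 and PTPRK had 0.36 and 0.34 (limma, adjusted p = 0.250 and 0.289), PTPN11 with no overlap between groups and PTPRK at 0.72 on occasion 1 and -0.04 on occasion 2.

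Transcription factors of the epithelial and mesenchymal states gave no call by limma over 20 tested of 42 (3 at an unadjusted p under 0.05), with a median of -0.00. SOX4 had a log2 fold change of 0.41 with no overlap between groups (limma, adjusted p = 0.149), the pioneer factor FOXA1 0.34 (limma, adjusted p = 0.289) and the Hippo effector YAP1 0.30 (limma, adjusted p = 0.364). YAP1 differed on occasion 1 only, by 0.59 against 0.01 on occasion 2. TWIST1 was detected on all 4 arrays and had a log2 fold change of -0.00 (limma, adjusted p = 0.995). Of the SNAIL and ZEB families of CDH1 repressors, SNAI1, SNAI2, SNAI3 and ZEB2 were, like ZEB1, detected on no array, with SNAI1 at 60.7 to 69.0, SNAI2 at 83.2 to 102 and ZEB2 at 71.7 to 83.1.

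For the transcriptional side of beta-catenin, 24 of 49 genes of the destruction complex and Wnt signalling and 17 of 31 target genes were tested, and limma called none of either (1 and 3 at an unadjusted p under 0.05). The medians were 0.03 and 0.05. Among the signalling genes BCL9, a beta-catenin co-activator, had the smallest p, with a log2 fold change of 0.30 (limma, adjusted p = 0.373). CREBBP at 0.27 (limma, adjusted p = 0.436) and the Wnt carrier WLS at -0.25 (limma, adjusted p = 0.481) followed. The CREBBP difference was 0.48 on occasion 1 and 0.06 on occasion 2. The brighter WLS probe, ILMN_2283325, had -0.22 (limma, adjusted p = 0.556). Among the targets MMP7 had 0.38 (limma, adjusted p = 0.211), MET 0.30 (limma, adjusted p = 0.366) and NRCAM 0.29 (limma, adjusted p = 0.396). All 3 of these targets differed on occasion 1 only, by 0.73, 0.62 and 0.58, against 0.02, -0.02 and -0.01 on occasion 2. The brighter NRCAM probe, ILMN_1722809, had a log2 fold change of 0.20 (limma, adjusted p = 0.606), with 0.38 on occasion 1 and 0.03 on occasion 2. A549/vec replicate 1 was the lowest array for 9 of the 17 targets.

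**Figure D4:**
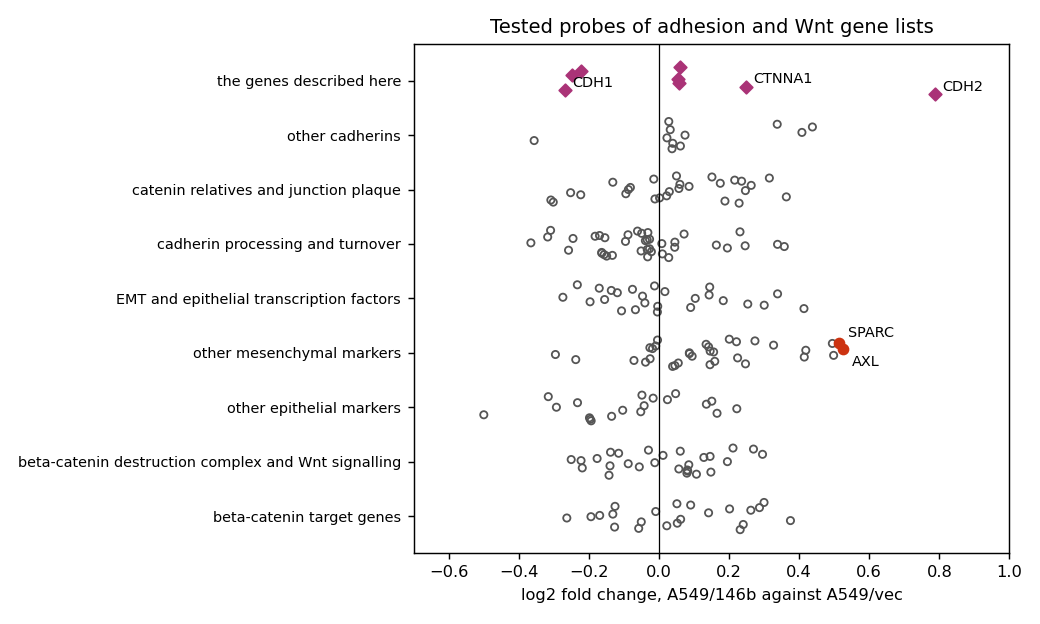
Fitted log2 fold change, A549/146b against A549/vec, of the 8 tested probes of the genes described here (diamonds) and of the tested probes of 8 lists of other genes (open circles, or filled red where limma called them at an adjusted p under 0.05). AXL, at 0.53, and SPARC, detected on 1 of 4 arrays, are the only called list genes. CDH2 lies at 0.79, to the right of every list gene, but it was chosen on this same difference and its place is no result.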

How the data were processed

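In GenomeStudio, the authors reduced the beads for a probe to an intensity and a detection p-value against the negative control beads, and then made normalized intensities in lumi 1.14 under R 2.11.1 (background correction, variance stabilization, robust splines). The deposited normalized intensities are on a linear scale, so log2 was taken before any difference. Spline normalization aligns the overall distribution of the arrays and would remove a shift shared by most transcripts. The array's annotation names 21834 of 24526 probes, and no array was pooled or left out. With 2 arrays a cell-line the number of arrays limits the precision.

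Probes with a detection p under 0.01 on 1 or more arrays entered a fit with limma 3.58.1 (R 4.3.3), with Benjamini-Hochberg adjustment over all 10559 of them. The occasion was a block because the study compared the cultures in pairs and the labels number them 1 and 2 in both cell-lines. As a check, deviations of same-numbered arrays from their cell-line's mean correlated at -0.05 over probes, above the limit of -0.1 for crossed numbers, and this gives the pairing no support of its own. Each probe had 1 residual degree of freedom in the fit beside 1025 prior ones from limma's pooling over probes. With 2 arrays against 2 a two-sided permutation test cannot go below 0.333, so none was used. The fit was tested on simulated data with the same noise SD for every probe. Such data cannot show whether the pooling over probes holds for the real ones.

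The 10 genes, the lists around them and the rules were chosen with earlier results of these data known. The text names all 10 genes with every probe, of each list the called genes and the 3 with the smallest p, the 5 genes most like CDH2 and the detected cell type markers. Genes of the lists named as not detected, TWIST1, and the mesenchymal markers named only as detected were chosen after their values were seen. Where a probe was detected on no array of a cell-line, its change is a bound if both arrays of the other cell-line detected it. The bound is taken from the lowest detected signal of each of the undetected arrays. Otherwise no size is read. The orders of mean difference and of likeness to CDH2, the medians, the limma calls and the figures still hold such probes with their measured signals. Alternatives were other normalizations of the signals before normalization (neqc, quantile, median scaling), no block, other detection filters and leaving out each array. MicroRNA sequences and gene order are from RefSeq on GRCh38.p14.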

Additional observations from a re-analysis of the deposited data

How the results depend on the processing

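Fits without 1 array had no replicate block, since 3 arrays with the block leave no residual degree of freedom, so they change both at once. The CDH2 log2 difference of 0.79 was 0.81 with neqc, 0.78 with quantile normalization and 0.84 with median scaling, and 0.69 to 0.88 when 1 array was left out (0.71 without A549/146b replicate 1). The widening of the CDH2 and CDH1 gap, 1.06, was 1.05 to 1.12 under those normalizations and 0.86 to 1.25 when 1 array was left out. The median of the other 7 probes, 0.06, was 0.05 to 0.08 under those normalizations, and on 3 arrays ran from -0.33 without A549/vec replicate 2 to 0.07 without A549/vec replicate 1. Calls over all tested probes fell from 98 to 21 with neqc, 7 with median scaling, 33 for probes detected on all 4 arrays, 2 with a detection limit of 0.05 and 0 with no detection filter (limma, 1984 at an unadjusted p under 0.05), and were 90 with quantile normalization. Leaving out 1 array and the block gave 12 to 868, with 49 when it was A549/vec replicate 1. Without the replicate block on all 4 arrays 12 were called, CDH2 among them, and 0 list genes. CDH2 was not called with median scaling, with no detection filter, with a detection limit of 0.05 or without A549/146b replicate 1. The 2 called list genes became 0 under median scaling, without the block and under each of the 3 other detection filters, and 1 to 29 when 1 array and the block were left out. AXL lost its call with neqc and SPARC kept it there. The cause of these changes was not tested. Over the single probes other than CDH2 and these alternatives, 44 values stayed within the spread between arrays or on their side of the threshold, 11 moved further and 15 lost a call, while CDH2 moved by more than its spread with median scaling and without each array. Array number and signal near background limit CDH3, CDH11, CTNND1 and ZEB1, for which no difference could be read.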

Other observations

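Genes that lie beside the 10 on their chromosomes, by RefSeq gene order, were looked at for their own values. The protein-coding genes nearest to CDH2 are CHST9, a sulfotransferase gene, AQP4, a water channel gene, and the desmosomal cadherin genes DSC3 and DSC2, and none of their probes was detected on any array, with signals from 60.2 to 94.7. CDH1 lies between CDH3, which was not detected, and TANGO6, which had no probe. ZFP90, on the far side of CDH3, gave 626 and 581 in A549/vec and 518 and 540 in A549/146b (limma, adjusted p = 0.636). Beside CTNNA1, the mitochondrial chaperone gene HSPA9 had log2 differences of -0.04 and -0.34 on occasions 1 and 2 (limma, adjusted p = 0.636), where CTNNA1 had 0.24 and 0.26. ETF1, on the far side of HSPA9, had 0.58 and -0.04 (limma, adjusted p = 0.441). SIL1, on the other side of CTNNA1, had -0.17 and 0.01 on its brightest probe (limma, adjusted p = 0.877). These genes were chosen after their values were seen.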
